A study of Rattus norvegicus with 18 samples.

Results

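CpG island regions were the listed regions whose detailed annotation in the deposited tables reads CpG, alone or followed by a hyphen and an island number. They numbered 252 of the 61661 regions in 4 lists of differentially methylated regions, and each list compared the methylation of sorted fetal rat germ cells between a pair of groups. The germ cells, called gonocytes, came from Sprague-Dawley rats with a germ-cell-specific green fluorescent protein transgene (GCS-EGFP). They were collected by fluorescence-activated sorting, and their DNA was measured by capture bisulfite sequencing, which reads methylated cytosines in a panel of targeted regions. The 18 samples formed 5 groups: control males (4 samples), control females (3), males from dams on a high-fat diet, HFD (4), and HFD females (3), all at gestational day (GD) 16, and control males at GD18 (4).

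All animals in every group carried the transgene. Control dams received a diet with 18% of calories from fat and HFD dams one with 45%, from the day of a sperm-positive smear, with 5 dams in each diet group. Whether samples of a group came from separate litters is not given. The study's design text names 4 samples that were taken from an earlier project for re-analysis, and their group is not given. The tables hold 1 mean per group and region, so no spread between animals is shown, and the number of reads behind each mean is unknown. Every methylation level below is the authors' mean of a group in percent. Differences are in percentage points, written as the first-named group minus the other, and a region is called higher or lower because the authors listed it so.

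CpG islands are short stretches of DNA rich in cytosine followed by guanine (CpG), the site at which mammalian cells methylate DNA. Most islands in somatic cells stay free of methylation, while those of imprinted genes and of some germline genes can carry it. Fetal germ cells erase most of their methylation. Male germ cells then lay down new methylation before birth, and female germ cells do so only after birth, as the oocyte grows.

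The label picks a particular kind of island. All 252 regions were annotated as intron or intergenic. Among HFD male regions 57 were intergenic and 16 intronic, among HFD female regions 12 and 7, in the comparison of the sexes 106 and 34, and in the GD18 comparison 13 and 7. None of the 1423, 257, 6640 and 249 listed exon, promoter, untranslated or transcription-end regions carried it, because their detailed label repeated the annotation. Islands at promoters are therefore outside the 252 regions. A region of the receptor gene Kit shows how this works: an 89-bp intronic region at chr14:35117649-35117737 was labelled as island in the HFD male table, and a longer region with the same start, chr14:35117649-35117857, was labelled exon in the table of the sexes.

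The sequences of the island regions were not used here, since the genome build behind the coordinates is not given. The 250 bases ahead of the RefSeq gene start (GRCr8, on the gene's strand, 5′ to 3′) are shown for 3 genes whose nearby or intronic island carries a result below. They let a reader see promoters that differ in their number of CpGs. CG is in capitals. These GRCr8 positions are not comparable with the positions in the tables.
Plagl1: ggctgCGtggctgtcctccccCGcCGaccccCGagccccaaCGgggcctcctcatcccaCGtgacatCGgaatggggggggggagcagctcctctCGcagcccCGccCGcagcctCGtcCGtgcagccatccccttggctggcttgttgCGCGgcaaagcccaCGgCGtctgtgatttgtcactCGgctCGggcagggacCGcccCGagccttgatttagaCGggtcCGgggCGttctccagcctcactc
Sohlh2: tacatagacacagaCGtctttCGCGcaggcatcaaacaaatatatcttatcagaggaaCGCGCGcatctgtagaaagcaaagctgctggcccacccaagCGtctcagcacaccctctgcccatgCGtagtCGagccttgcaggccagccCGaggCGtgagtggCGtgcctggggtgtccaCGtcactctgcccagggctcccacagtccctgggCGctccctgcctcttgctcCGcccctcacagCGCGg
Map2k6: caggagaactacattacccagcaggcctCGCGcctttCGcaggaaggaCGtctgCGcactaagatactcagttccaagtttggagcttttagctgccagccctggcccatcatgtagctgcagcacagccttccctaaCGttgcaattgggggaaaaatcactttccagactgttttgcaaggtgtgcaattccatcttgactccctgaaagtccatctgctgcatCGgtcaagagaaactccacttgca

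The Plagl1 promoter (chr1:9297214-9297463, plus strand) held 23 CG pairs, and 12.3% of 33465 rat promoter windows of the same length held at least as many. The Sohlh2 promoter (chr2:141512160-141512409, plus strand) held 17, a number reached by 21.9% of windows. The Map2k6 promoter (chr10:95872497-95872746, plus strand) held 7, reached by 45.2%, beside a median of 5 over all windows. CG reads the same on both strands, so 1 search covered both. The count describes the letters of the window and says nothing of its methylation.

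Islands were a small part of each list. They made up 73 of 10084 regions between HFD and control males (0.724%), 19 of 1832 between HFD and control females (1.04%), 140 of 48127 between control males and females at GD16 (0.291%), and 20 of 1618 between GD18 males and GD16 females (1.24%). Regions that touch or overlap across tables merged into 201 loci. Of these, 164 stood in 1 table, 30 in 2 and 7 in 3. The 252 rows held 239 distinct pairs of start and end. Island regions within a table were mostly apart from each other, with 73 regions in 68 stretches in HFD males and 140 in 128 in the comparison of the sexes when neighbours within 1000 bp were joined. No stretch mixed regions of both directions.

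Island regions were shorter and denser in CpGs than the listed intron and intergenic regions with neither an island nor a repeat label. Density follows from the label itself and is no finding. In HFD males the median length was 99 bp for islands and 256 bp for the other regions, and in the comparison of the sexes it was 237 and 430 bp. It was 133 and 221 bp in HFD females, and 70.5 and 219 bp in the GD18 comparison. The median number of CpGs was 9 and 7 in HFD males, 11 and 7 in HFD females, 18 and 8 between the sexes, and 10 and 6 in the GD18 comparison. By these medians, islands of the comparison of the sexes were the longest and had the most CpGs, as the plot of length and density shows.

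**Figure D1:**
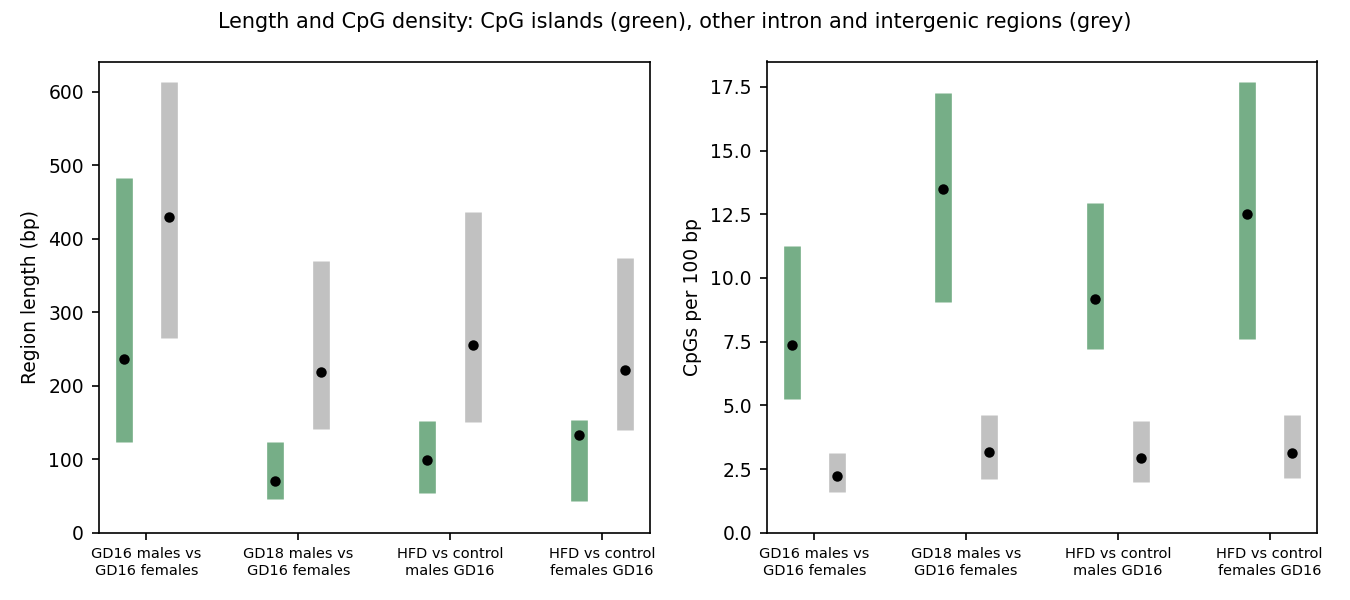
Length in bp (left) and CpGs per 100 bp (right) of listed CpG island regions (green) and of other listed intron and intergenic regions without a repeat label (grey) in the 4 comparisons. Points are medians and bars run from the lower to the upper quartile over regions, with medians of 7.37, 13.51, 9.17 and 12.5 CpGs per 100 bp for islands, from left to right, and 2.23, 3.18, 2.94 and 3.14 for the others.

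The comparison of the sexes asks how far the germ cells of control males and females differ at GD16. Males had more methylation at 133 of the 140 island regions, which is 95%, and males were higher at 99.7% of all listed regions. Females had more at 7 island regions (5.0%), where 0.343% of all listed regions were female-higher. Over the 133 male-higher islands the median level was 19.1% in males and 4.3% in females, close to the 19.6% and 4.7% of all male-higher regions. The median difference was 14.9 points for islands and 14.3 for the other intron and intergenic regions. Of the 133 regions, 81 had a female level under 5% (60.9%), beside 26233 of all 47962 male-higher regions (54.7%).

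The widest male excess stood at an intergenic island at chr12:28251358-28251389, with 35.2% in males and 2.7% in females over 5 CpGs. It lies beside the island region with the most CpGs in the 4 tables, chr12:28250418-28251296, which had 64 CpGs and levels of 16.1% and 4.9%. The short region and the long one thus shared a direction and differed in size. An X-linked island at chrX:156234526-156234581 had 35.4% in males and 3.9% in females. An intergenic island at chr14:9842814-9843107, with 25 CpGs, had 32.5% and 1.1%. Chromosome 12 gave 3 more of the widest differences, with 35.2% and 4.9% at chr12:51594781-51594994, 36.8% and 6.5% at chr12:40754167-40754422, and 36.7% and 6.7% at chr12:4546415-4546555. It held 15 of the 140 island regions (10.7%) and 4.16% of all listed regions. Some of the 15 were neighbours, and the share was not tested. The remaining intergenic region among the 8 widest was chr14:107349420-107349575, with 31.2% and 2.4%. Supt20hl1, an X-linked gene, had 32.7% and 3.8% in an intron. At chr1:31068860-31068887 males had 26.5% and females were listed at 0.0%, and at chr16:75874484-75874654 the levels were 29.3% and 3.1%.

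The islands with the most CpGs had moderate differences. Those at chr12:13461735-13462087 (60 CpGs), chr12:40226666-40227239 (57 CpGs) and chr5:156575720-156576072 (56 CpGs) had male levels of 19, 17.1 and 16.7% and female levels of 4.8, 5.0 and 2.3%. An intron of Ripor2, a regulator of the small GTPase RhoA, had 55 CpGs and levels of 22.9% and 6.9%. The intergenic island at chr10:97504828-97505554, also with 55 CpGs, had 12.9% and 2.5%. The smallest listed excesses of males were 10.1 points at chr6:91113841-91114614 and 10.2 points at chr12:38847238-38847968 and chr8:20650507-20650783.

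Named here are the male-higher islands in genes of the germline and meiosis list and of the imprinted list. Sohlh2 encodes a helix-loop-helix transcription factor that, in mice, is needed for early spermatogonia and oocytes, and its intronic island at chr2:144592016-144592351 had 23.0% in males and 2.3% in females over 15 CpGs. Fkbp6, which in mice is required for meiosis in males, had 16% and 2.6% at chr12:24367282-24367429. These were the 2 island regions among 81 listed regions in 34 germline and meiosis genes. Nnat, an imprinted gene that codes for the membrane protein neuronatin, had 12.2% and 1.9% at an intronic island of 41 CpGs, chr3:154044016-154044462. It was the only listed region of Nnat and the only island among 124 regions in 28 imprinted genes in this table.

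Islands were 0.291% of all listed regions of this table, and nothing particular is read from their number in any list, the germline and imprinted lists included. The other gene lists are given by count. Among lipid, glucose and energy metabolism genes, 1 of 201 listed regions was an island: Nr1h2, which encodes the sterol-sensing nuclear receptor LXR beta, had 18.7% in males and 5.0% in females at chr1:100557652-100558169. Among cadherin and protocadherin genes, 1 of 225 was an island: Pcdh15, a protocadherin of the inner ear's hair bundles, had 23.2% and 8.0% at chr20:15245844-15246011. None of 186 listed regions in 43 homeobox, Pax, T-box, Fox, Sox and Gata genes was an island region, nor was any of 88 in 29 DNA methylation and chromatin modifier genes. The wide male excesses in named genes also included Adarb2, a brain member of the RNA-editing deaminase family, with 29.2% and 3.4%.

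Females had more methylation at 7 islands, all intergenic. The widest was chr2:150728984-150729031 with 40.6% in females and 10.6% in males, followed by chr1:104196893-104197101 with 29.3% and 4.1%. The others were chr1:102737510-102737681 (13.6% and 0.3%), chr2:107218142-107218215 (23.2% and 10%), chr12:48381963-48382060 (13.5% and 3.2%), chrX:11601099-11601268 (11.7% and 0.4%) and chrX:79489334-79489392 (10.4% and 0.0%). In these regions the median level was 13.6% in females and 3.2% in males, and the differences ran from 10.3 to 30.0 points. The X chromosome held 8 of the 140 island regions, 6 male-higher and 2 female-higher, which is 5.71% of the islands, where 1.09% of all listed regions were X-linked. With 8 regions and no test, nothing particular to the X chromosome is read from this. Females have a pair of X chromosomes and males 1, and the means do not separate the copies.

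**Figure D2:**
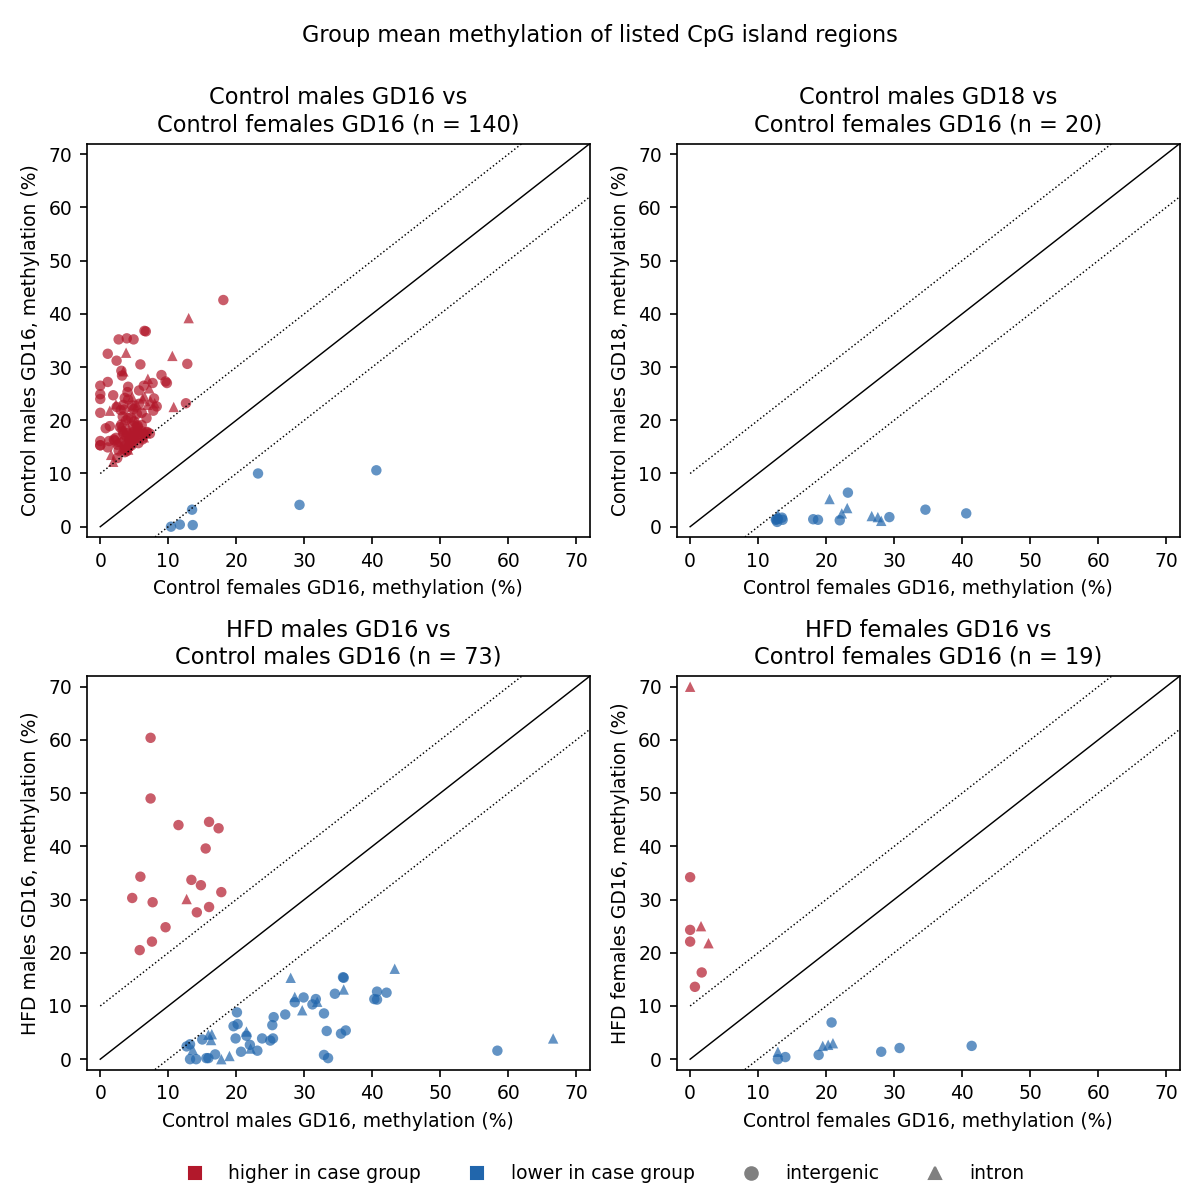
Mean methylation (%) of each listed CpG island region in the case group (vertical axis) and the control group (horizontal axis) of the 4 comparisons, as red (higher) or blue (lower) points, with circles for intergenic and triangles for intronic regions. The solid line marks equal levels and the dotted lines 10 points on each side, and the panels show male-higher points between 12.2 and 42.6% in GD16 males and all GD18 male points at or under 6.4%.

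The GD18 comparison sets control males 2 days older against the GD16 control females. All 20 island regions were lower in the GD18 males, where 92.5% of all listed regions were lower, and 0 were higher, where 7.54% of all listed regions were. The median level was 1.75% in GD18 males and 21.25% in GD16 females. All listed regions that were lower in GD18 males had medians of 3.0% and 16.5%. GD18 male levels lay between 0.9 and 6.4% over the 20 islands, and 18 of them were under 5%, as were 1246 of all 1496 lower regions (83.3%). The median difference was 17.15 points for islands and 12.9 points for all regions in that direction. Sex and day differ together in this comparison and cannot be told apart in it. The group of the 4 samples from the earlier project is not given, so whether the project also differs between the groups, here or in the values set side by side for GD16 and GD18, cannot be told apart either.

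The widest island difference was at chr2:150728984-150729031, with 2.5% in GD18 males and 40.6% in GD16 females. Plagl1, an imprinted gene for a zinc-finger transcription factor that restrains cell growth, had 2.5% and 22.3% at an intronic island of 8 CpGs, chr1:7219929-7219971. It was the 1 island among 4 listed regions in 4 imprinted genes. Islands were 1.24% of all listed regions of this table, and nothing is read from a count of 1. The Plagl1 island sits beside other listed Plagl1 regions. In GD16 the adjoining stretch annotated as 5′ UTR, chr1:7219597-7219842, had 18.0% in control males and 3.7% in control females, and the promoter region chr1:7219597-7219655 had 1.1% in HFD males and 22.4% in control males. All 4 Plagl1 regions listed between the sexes at GD16 were male-higher. The island, listed only in the GD18 comparison, had 22.3% in the same female group.

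Map2k6, a kinase that activates p38 MAP kinase, had 2 island regions lower in GD18 males. These were chr10:98714755-98714791 with 2.0% and 26.7%, and chr10:98714794-98715075 with 2.3% and 12.9%. Cacna1c, the pore subunit of an L-type calcium channel, had 1.8% and 27.6% at chr4:151175727-151175752, the widest difference in a gene with a symbol. Scap, the sterol sensor that escorts SREBP transcription factors, had 3.5% and 23.1% at chr8:118574319-118574342. Ptpru, a receptor tyrosine phosphatase, had 5.2% and 20.5% at chr5:149995164-149995209. An intronic island of the transcript NM_001107045, which has no symbol in the name table, had 1.1% and 28.1% at chr10:84915353-84915406.

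The remaining islands of the GD18 comparison were intergenic. The widest among them were chr16:82473906-82473959 (3.2% and 34.6%), chr1:104196893-104197101 (1.8% and 29.3%) and chr5:165072969-165073149 (1.2% and 22.0%). The smallest listed differences were 11.3 points at chr2:161559850-161560029 and chr2:161560027-161560093, and 10.6 points at the longer Map2k6 island. None of the 20 lay on the X chromosome.

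At 8 islands the tables of the sexes and of GD18 list identical coordinates, so 3 group means can be set side by side. Both tables share the control females, whose mean was equal in both at all 8. GD18 males were lower than GD16 males at 7 of the 8, but all 8 are in the set because GD18 males were listed as lower than females, and no listed comparison sets the 2 male groups against each other. At 3 of these islands GD16 males stood above the females. The levels were 30.6% in GD16 males, 12.8% in females and 0.9% in GD18 males at chr13:89934739-89934845. They were 42.6, 18.1 and 1.4% at chr14:2721065-2721147, and 23.2, 12.6 and 1.3% at chr2:161559850-161560029. At the other 5 islands GD16 males already stood below the females. The exception to the lower GD18 level was chr1:102737510-102737681, with 0.3% in GD16 males, 1.3% in GD18 males and 13.6% in females.

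The male diet comparison asks which islands differ at GD16 between offspring of HFD and control dams. HFD males had less methylation at 55 of 73 islands, which is 75.3%, and 74.0% of all listed regions were lower. They had more at 18 islands (24.7%), where 26.0% of all listed regions were higher. The split by direction was thus near that of the whole table. At the 55 lower islands the median level was 4.8% in HFD males and 25.4% in control males, and over all lower regions it was 10.3% and 25.2%. The HFD level was under 5% at 28 of the 55 (50.9%) and at 886 of all 7461 lower regions (11.9%), a difference that was not tested. At the 18 higher islands the medians were 32.05% in HFD males and 12.1% in control males, beside 27.7% and 10.5% over all higher regions.

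Listed differences were wider at islands than elsewhere in this table. The median fall was 19.3 points at islands and 13.4 points at other intron and intergenic regions, and the median rise was 21.05 and 15.4 points. A difference of at least 20 points was seen at 35 of 73 islands (47.9%), and at 26.5% of all listed regions. In HFD females it was seen at 8 of 19 islands (42.1%) and 21.2% of all listed regions, in the comparison of the sexes at 31 of 140 (22.1%) and 17.4%, and in the GD18 comparison at 7 of 20 (35.0%) and 14.6%. These are descriptions of lists. Islands are also shorter, region length was not held constant in these figures, and depth is unknown. The part of region length in the wider differences was not tested.

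**Figure D3:**
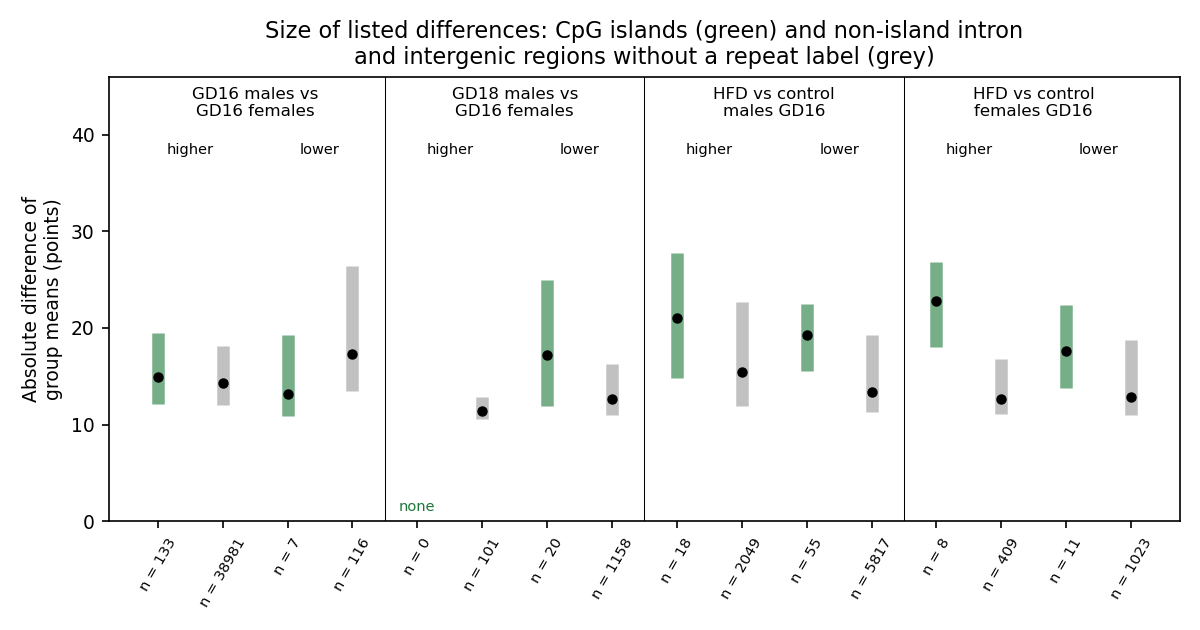
Absolute difference of the group means in points (vertical axis) for listed CpG island regions (green) and other intron and intergenic regions without a repeat label (grey), by comparison and direction. Points are medians, bars run from the lower to the upper quartile over regions, n is the number of regions, and the 2 diet comparisons have island medians between 17.6 and 22.75 points beside 12.6 to 15.4 points for the other regions.

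The widest fall in HFD males was in an intron of Ptpn12, a cytosolic tyrosine phosphatase that acts on adhesion and migration proteins. It had 3.9% in HFD males and 66.6% in control males at chr4:10631423-10631450, a region of 28 bp with 6 CpGs, with an FDR of 3.38e-08 in the authors' deposited table. An intergenic island of 144 bp at chr5:139933643-139933786 had 1.6% and 58.4% over 14 CpGs, with the smallest p among the islands of this comparison in the authors' deposited table, 1.66e-50. The next intergenic falls were chr2:104006436-104006488 (0.2% and 33.5%), chr6:27836277-27836330 (0.8% and 32.9%), chr6:91114290-91114389 (5.4% and 36.1%) and chrX:156234526-156234581 (4.8% and 35.4%). Those that followed were chr12:51594781-51594910 (12.5% and 42.1%), chr9:98493256-98493305 (11.2% and 40.7%) and chr12:18884439-18884600 (11.3% and 40.3%). A tie at 28.0 points closed the set, at chr3:15598234-15598310 (5.3% and 33.3%) and chr6:132652702-132652831 (12.7% and 40.7%).

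Islands with many CpGs were among those lower in HFD males. An intergenic island of 43 CpGs at chr17:9136584-9136978 had 3.9% in HFD males and 25.4% in control males. Islands of 28 CpGs stood at chr14:2720876-2721147 (6.6% and 20.2%) and chr7:12191964-12192115 (2.4% and 12.7%). The latter was the smallest listed island difference of the table, 10.3 points. A run of 3 neighbouring regions at chromosome 4 between 133689511 and 133689740 fell together, from 13.2, 20.7 and 14.1% to 0.0, 1.4 and 0.0%.

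Among genes the falls included Kit, the receptor for stem cell factor, on which migrating germ cells depend for survival. Its intronic island had 11.7% in HFD males and 28.6% in control males over 7 CpGs. It was the 1 island among 20 listed regions in 13 germline and meiosis genes, and the other 3 listed Kit regions of this table were lower in HFD males as well. Tdg encodes thymine DNA glycosylase, which cuts out oxidised methylcytosine during active demethylation. It had 1.8% and 13.6% at a 98-bp intronic island with 19 CpGs, chr7:27213449-27213546. This was the 1 island among 20 listed regions in 13 genes of the DNA methylation and chromatin list. Islands were 0.724% of all listed regions of this table, and nothing is read from their number in either list. A separate Tdg region annotated as exon, chr7:27198726-27199185, had 8.3% and 38.9%.

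Further intronic islands lower in HFD males lay in genes named here after their values were seen. Spred2, an inhibitor of Ras signalling, had 10.8% and 31.9% at chr14:104277415-104277557. Of the 4 listed Spred2 regions of this table, 2 were higher in HFD males and 2 lower. Pde4a, a phosphodiesterase that breaks down cyclic AMP, had 2.0% and 22.1% at chr8:22204494-22204634. Nsd3, a histone methyltransferase that is not in the DNA methylation and chromatin list, had 3.6% and 16.3% at chr16:71163164-71163267. Caap1, an inhibitor of apoptosis, had 13.1% and 35.8%, and Prag1, a pseudokinase, had 0.6% and 19%. Macrod1, an enzyme that removes ADP-ribose from proteins, had 4.7% and 16.4%, and the zinc-finger gene Zfp143 had 15.3% and 28.0%. In all, 15 of the 16 intronic islands of this table were lower in HFD males (93.8%), beside 74.0% of all listed regions; with 16 regions and no test, nothing particular to introns is read from this.

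The 1 intronic rise was in Cdc42bpb, a kinase that acts downstream of the small GTPase Cdc42, with 30.1% in HFD males and 12.7% in control males at chr6:135751817-135751940. Of the 6 listed Cdc42bpb regions of this table, 2 were higher in HFD males and 4 lower. The other 17 rises were intergenic. The widest were chr7:99524916-99525069 with 60.4% and 7.4%, chr19:42764743-42764829 with 49.0% and 7.4%, and chrX:70257034-70257206 with 44.0% and 11.5%. Next came chr2:153905351-153905819 (44.6% and 16%), chrX:42432684-42432787 (34.3% and 5.9%) and chr3:171884885-171885033 (30.3% and 4.7%). Control levels of the 18 rises stayed between 4.7 and 17.8%. The others among the 10 widest were chr9:38030709-38030760 (39.6% and 15.5%), chr10:107050214-107050236 (29.5% and 7.7%), chr4:56337345-56337415 (33.7% and 13.4%) and the wider of the chromosome 5 regions given below. The narrowest rise was 12.6 points, at chrX:157200689-157200913. A pair of adjoining islands at chr12:50713278-50713447 and chr12:50713459-50713511 rose from 14.2 and 14.8% to 27.6 and 32.7%. The X chromosome held 7 of the 73 islands, 4 rises and 3 falls, which is 9.59%, where 1.59% of all listed regions were X-linked. With 7 regions and no test, nothing particular to the X chromosome is read from this. The listed imprinted, cadherin, metabolism and developmental regulator genes had 23, 41, 39 and 42 listed regions and 0 islands, in a table where 0.724% of all listed regions were islands, and nothing is read from the 0.

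The diet comparison in females addresses the same question. HFD females had less methylation at 11 of 19 islands (57.9%), where 71.7% of all listed regions were lower, and more at 8 (42.1%), where 28.3% were higher. With 19 regions the split rests on few loci. At the 11 lower islands the median level was 2.1% in HFD females and 20.3% in control females, beside 2.4% and 16.1% over all lower regions. At the 8 higher islands it was 23.2% and 0.35%, beside 15.2% and 2.0%. All 8 control levels were under 5%, as were 454 of all 519 higher regions of this table (87.5%), and 4 of the 8 were listed at 0, beside 99 of the 519.

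The widest rise was in an intron of Tenm3, a transmembrane teneurin that guides neuronal connections, at chr16:46594560-46594583. Its mean was 70.0% in HFD females and 0.0% in control females, over 5 CpGs in 24 bp, and its p is listed at 0 in the authors' deposited table. This is the smallest CpG number a table lists. The region next to it, chr16:46594414-46594555, carries no island label and had 28.1% and 3.9%. Afg1l, a mitochondrial ATPase, had 25% and 1.6% over 18 CpGs at chr20:47174503-47174636. Sohlh2 had 21.8% and 2.7% over 7 CpGs at chr2:144592320-144592377, the 1 island among 3 listed regions in 3 germline and meiosis genes. Islands were 1.04% of all listed regions of this table, and nothing is read from a count of 1. The intergenic rises were chr7:12196621-12196659 (34.2% and 0.0%), chr4:62450088-62450239 (24.3% and 0.0%), chr7:1624282-1624435 (22.1% and 0.0%), chrX:11593680-11593802 (16.3% and 1.7%) and chr3:58208528-58208672 (13.6% and 0.7%).

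The widest fall was at an intergenic island of 17 CpGs, chr16:82473890-82473959, with 2.5% in HFD females and 41.4% in control females. Next was chr1:104196893-104197101 with 2.1% and 30.8%. Genes with a lower island were Ocln, the tight junction protein occludin, with 3.0% and 21.0% at chr2:30576964-30577116, and Map2k6. Map2k6 had 2.5% and 19.5% at chr10:98714740-98714787 and 1.4% and 12.9% at chr10:98714794-98715075. Another Map2k6 region in the same table, chr10:98727135-98727387, carries no island label and was higher in HFD females, with 13.6% and 1.9%. An intron of the transcript NM_001108572, without a symbol, had 2.7% and 20.3%. The other intergenic falls were chr10:107598289-107598318 (1.4% and 28.1%), chr19:25120770-25120799 (0.8% and 18.9%), chr5:165072915-165073149 (6.9% and 20.8%), chr10:74910774-74910946 (0.4% and 14.0%) and chr1:102737512-102737644 (0.0% and 12.9%).

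The 2 diet tables share no group. Of the 73 male islands 4 (5.48%) overlapped 3 of the 19 female islands (15.8%). The same shares over all listed regions are not given here, so nothing is read from the number of overlaps. A single pair had the same direction, at chromosome 16 near 82473928, with 4.4% in HFD males and 21.5% in control males over chr16:82473928-82473959, and the female values given above. The other 3 pairs went in opposite directions. At chr4:62450065-62450239 HFD males had 8.6% and control males 32.9%, while HFD females had 24.3% and control females 0.0% over the overlapping region. At chromosome 5 HFD males had 43.4% and 31.4% in 2 regions, chr5:165072987-165073083 and chr5:165073103-165073149, with 17.4% and 17.8% in control males. The female island that spans both, chr5:165072915-165073149, had 6.9% on HFD and 20.8% on the control diet. Whether the diet difference depends on sex was not tested at these loci, since no value per sample was used.

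**Figure D4:**
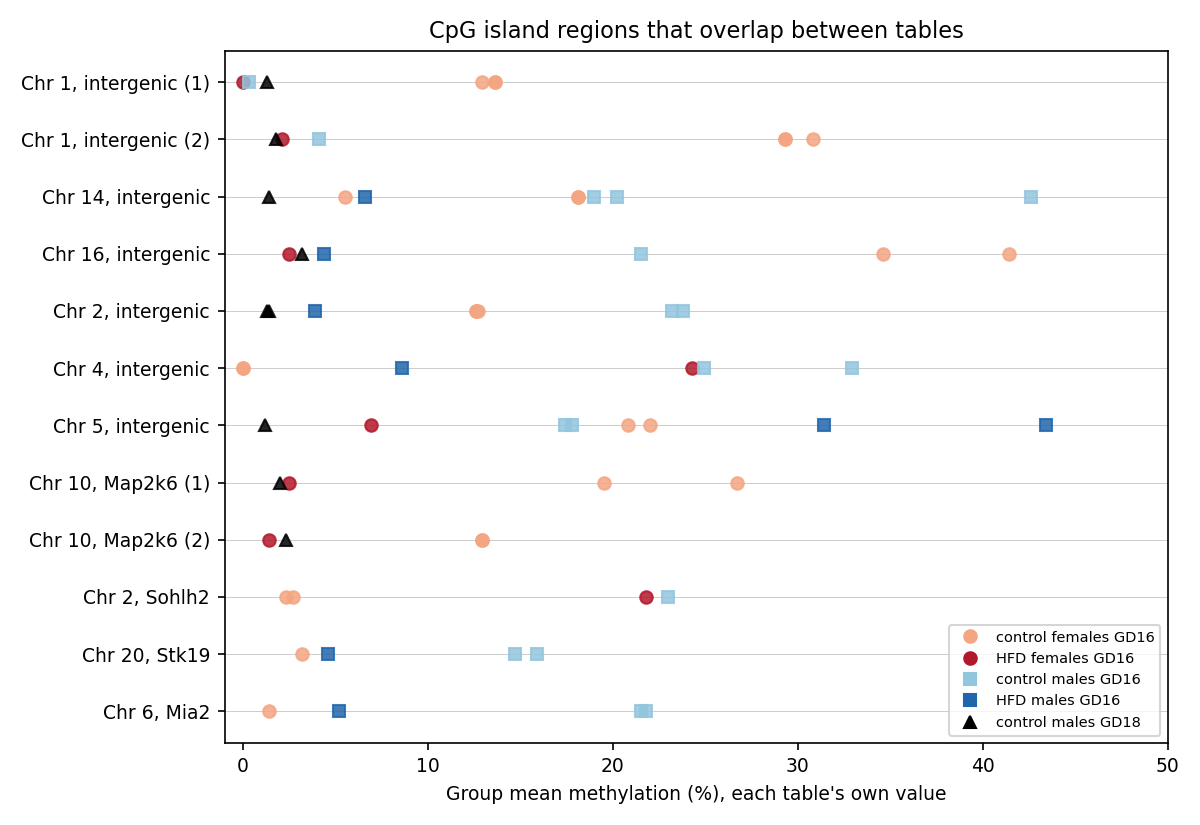
Mean methylation (%, horizontal axis) of each group at the 7 island loci listed in 3 tables and at 5 named gene loci listed in 2, each point being the value of 1 group in 1 table. Squares are GD16 males and circles GD16 females, light for control and dark for HFD. Black triangles are GD18 males, which are all controls. At the chromosome 4 locus control females stand at 0.0% and control males at 24.9 and 32.9%. At the chromosome 5 locus HFD males stand at 31.4 and 43.4%, above all other groups.

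The HFD male and GD18 tables also share no group. Of the 73 male islands 6 (8.22%) overlapped 5 of the 20 GD18 islands (25%), with 4 pairs in the same direction and 2 in opposite directions. Here too the shares over all listed regions are not given, and nothing is read from the number of overlaps. The same-direction pairs were all lower, at chr14:2720876-2721147 (6.6% in HFD males), chr2:161559789-161559913 (3.9%), chr16:82473928-82473959 (4.4%) and NM_001107045 (17.0%). The control males at these regions had 20.2, 23.8, 21.5 and 43.3%. GD18 males had 1.4, 1.3, 3.2 and 1.1% in the overlapping regions. Both opposite pairs belong to the chromosome 5 locus, where HFD males were higher than GD16 control males and GD18 males had 1.2% beside 22.0% in GD16 females.

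Other tables share a control group, so the values are only set side by side and the overlap is not a result. At 23 islands where HFD males were lower, the table of the sexes lists 24 overlapping male-higher islands. Medians there were 6.6% in HFD males, 25.5% and 25.1% in control males in the respective tables, and 4.05% in control females. The X-linked island chrX:156234526-156234581 had 35.4% in control males in both tables, 4.8% in HFD males and 3.9% in control females. Mia2, a protein of endoplasmic reticulum exit sites, had 5.2% in HFD males, 21.5% in control males of the same table and 1.4% in control females. Stk19 had 4.6%, 15.9% and 3.2% in the same order. The island at chr19:42764743-42764829 went the other way, with 49.0% in HFD males and 7.4% in control males, while the longer overlapping region chr19:42764801-42765509 had 16.5% in control males and 4.8% in control females.

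The female tables give 2 further sets that share the control females. Sohlh2 had 21.8% in HFD females and 23.0% in control males, with 2.7% and 2.3% in control females in the respective tables, over regions that overlap by their ends. At the chromosome 4 locus HFD females had 24.3%, control males 24.9% at chr4:62450147-62450262 and control females 0.0% in both. At 6 islands listed as lower both in HFD females and in GD18 males, the medians were 2.3% in HFD females, 1.9% in GD18 males, and 20.15% and 24.35% in control females. These include both Map2k6 islands and the intergenic loci at chromosome 1, chromosome 5 and chromosome 16. Control female means at identical coordinates were equal in the tables of the sexes and of GD18 at 8 of 8 islands, and the 1 island with identical coordinates in the HFD female table and the table of the sexes differed by 1.5 points, with unequal CpG numbers.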

How the data were processed

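The series was read from 4 tables of the authors' own comparisons. Per the labels' protocols, DNA of sorted germ cells was made into capture bisulfite libraries, and the submitters' processing notes list the aligners Bowtie2 and Bismark 0.19.0. Genome build and annotation tool are not given in the sources used here; printed coordinates are those of the tables. Methylation was deposited by the authors as a fraction per region and group, already averaged, and was multiplied here into percent. Whether the mean runs over samples, CpGs or reads is not stated. A deposited score holds the signed difference of the means, with a matching sign in all rows. The authors' tables also give a p-value and an FDR per region. The unit of their test is not given, so neither is read as the spread between animals. CpG number and length are the deposited ones, and whether CpGs are counted on each strand is not stated. All listed regions had at least 5 CpGs, a difference of at least 10.0 points and an FDR of at most 0.05. Lists of regions with larger changes (49 and 4 rows) repeat rows of the full tables and were not used.

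Island regions were found by the label, and regions were intersected at a minimum overlap of 1 bp, with the overlap code checked on simulated data. No test of the differences was made, because no value per sample was used; tests planned for such values were not made. Symbols came from RefSeq (GRCr8), which named 50 of 55 gene identifiers at 64 island regions. The members, the 6 gene lists (imprinted, germline and meiosis, DNA methylation and chromatin, cadherin, metabolism, developmental regulators) and the naming rule were chosen with earlier results of these data known. Named were, for each comparison and direction, all islands where there were at most 12, otherwise the 10 widest, the 5 with most CpGs and the 5 narrowest, plus islands shared between tables, islands of listed genes and genes with several islands; not every one so named is printed, 1 gene is not reported here, and a few further genes (Adarb2, Caap1, Macrod1, Nsd3, Pde4a, Prag1, Spred2, Zfp143, Cdc42bpb) were chosen after their values were seen. Alternatives were a difference of 20 points, 10 CpGs, an FDR of 0.01, a length of 50 bp, autosomes only, either spelling of the label, and stricter overlaps. The scripts ran in Python 3.11.15 with scipy 1.17.1, pandas 2.3.3, matplotlib 3.10.9 and numpy 2.4.6.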

Additional observations from a re-analysis of the deposited data

How the results depend on the processing

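Of 106 alternative values 77 stayed within the tolerance, 28 moved beyond it and 1 reversed. Some of the 77 could not change, since no GD18 island was higher and some alternatives removed no island. The alternatives for islands are subsets of the same lists, so the number that stayed is no measure of how firm the results are. The tolerance was 1.5 times the count, or the 95% interval over regions of a share or median, which is wide where islands are few: the HFD female share of rises went from 42.1 to 62.5% inside it at 20 points. With a difference of at least 20 points, the higher and lower islands numbered 10 and 25 in HFD males (median difference -21.5 points), 5 and 3 in HFD females, 29 and 2 between the sexes (24.6 points), and 7 lower at GD18 (-27.0 points). The HFD female median reversed there, to 22.75 points from -12.9, since 5 rises and 3 falls are left. With at least 10 CpGs, 8 and 22 islands were left in HFD males, 4 and 7 in HFD females and 11 lower at GD18. An FDR of at most 0.01 left 4 female-higher islands between the sexes and 13 at GD18. A length of at least 50 bp left 7 falls in HFD females and 13 at GD18. These counts shrink because fewer regions are admitted. The numbered label alone held 1 rise and 1 fall in HFD males (50.0% higher, median -0.2 points) and 2 rises and 0 falls between the sexes (100%, 16.05 points). Loci in more than 1 table numbered 37 at 1 bp and 12 with identical coordinates. Autosomes alone stayed within the tolerance, with 14 rises and 52 falls in HFD males (21.2% higher, median -17.35 points), 38.9% higher in HFD females and 127 male-higher islands between the sexes. So did the unnumbered label alone, with 17 and 54 in HFD males and 131 between the sexes. Neither alternative removed an island at GD18, nor did the unnumbered label in HFD females, so those values could not change. No paired analysis was possible because the tables hold group means only; for the same reason leaving out each replicate and a fit with the replicate number as a block were not run. Depth is unknown, so short regions with few CpGs, such as the Tenm3 island, cannot be weighed by their reads.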
